A study of Mus musculus with 8 samples.

Results

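The glutathione, thioredoxin and NRF2 antioxidant genes were read out in Paneth cells, the granule-filled secretory cells at the base of the crypts of the small intestine. The set was chosen by gene name and not by any measured value. It took in the protein-coding glutathione S-transferases (Gsta, Gstk, Gstm, Gsto, Gstp, Gstt and Gstz), the peroxiredoxins other than Prdx4, the glutathione peroxidases and the thioredoxin reductases. To these were added the thioredoxins Txn1 and Txn2, catalase, the superoxide dismutases Sod1 and Sod3, the enzymes and the transporter of glutathione supply (Gclc, Gclm, Gss, Gsr and Slc7a11), and Nfe2l2, Keap1, Nqo1, Hmox1 and Srxn1. The rule found 56 of the 55414 gene IDs in the count table. C57BL/6J mice drank Milli-Q (ultrapure) water with 25 mM ZnSO4 for 7 days, or the same water without zinc, with 4 mice per group. Paneth cells of the small intestine were then sorted by FACS (fluorescence-activated cell sorting), and the polyadenylated RNA of each mouse was sequenced as 1 library. All 8 mice were of the same genotype. Age and sex are not given in the labels.

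Cells keep hydrogen peroxide and lipid peroxides low with 2 thiol systems. Glutathione, a small peptide made from glutamate, cysteine and glycine, is the reducing partner of the glutathione peroxidases and is joined to electrophiles by the glutathione S-transferases, while thioredoxin is the reducing partner of most peroxiredoxins. The transcription factor NRF2, encoded by Nfe2l2, switches on many of these genes through the antioxidant response element in their promoters. The cysteine-rich protein Keap1 holds NRF2 down until electrophiles or metals react with it. Paneth cells store zinc in their granules and fold large amounts of disulfide-bonded defensins.

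No change in the antioxidant genes was detected after zinc. Of the 56 genes, 44 had enough counts to be tested. None of the 44 passed a Benjamini-Hochberg adjusted p of 0.05 in edgeR's quasi-likelihood test, and all 44 had an adjusted p of 0.998. Of all 11988 genes tested, 10 passed, which is 0.0834%. An unadjusted p under 0.05 was found for 2 of the 44, Gstt1 and Gpx2, both lower after zinc, beside 4.65% of all genes tested, or 2.81% when only lower values are counted. DESeq2 and limma-voom also called 0 of the 44, each with 2 at an unadjusted p under 0.05. In no gene of the 44 did the 4 zinc values lie apart from the 4 water values, while the groups did not overlap for 2.84% of all genes tested. The log2 fold change (zinc over water) was above 0 for 24 genes and below 0 for 20. Its median was 0.05 over the 44, beside 0.01 over all genes tested, and it ran from -0.44 for Gstm6 to 0.67 for Gsta3, both sparse transferases.

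The libraries held 20760764 to 24117111 counts. Values are given as CPM (counts scaled to a common library size with TMM factors), and the factors ran from 0.764 to 1.23. Where no read was counted, a level under 3 counts, or 0.115 to 0.188 CPM depending on the library, could not be told from 0. Both metallothionein genes, the classical zinc-induced transcripts, were higher in every zinc library. Mt2 was at 2.81, 2.15, 7.32 and 3.51 CPM in the water libraries 1 to 4 and 232, 455, 205 and 239.8 CPM in the zinc libraries (log2 fold change 6.15, SE 0.51, adjusted p = 0.0198 in edgeR). Mt1 went from 15.4, 13.7, 29.1 and 25.4 CPM to 223, 425, 189 and 219 CPM (log2 fold change 3.65, SE 0.38, adjusted p = 0.0259 in edgeR). All 8 Paneth cell markers were detected and took 41.9 to 54.5% of the counts. The 12 enterocyte markers summed to 496 to 632 CPM, the 5 goblet markers to 3153 to 5867 CPM, the 4 tuft markers to 14.0 to 119.9 CPM, the 6 enteroendocrine markers to 42.2 to 105 CPM and the 5 macrophage markers to 0 to 3.38 CPM, and all 3 neutrophil markers were at 0 in every library. The 4 stem cell markers summed to 4356, 4990.0, 4956 and 5728 CPM in the water libraries and 4455, 3776, 3441 and 3047 CPM in the zinc libraries. Most of that sum was Olfm4 (log2 fold change -0.48), while Ascl2, Lgr5 and Smoc2 had log2 fold changes of -0.24, -0.023 and 0.058, so the list did not move together. The part of stem cells in the values below was not tested. In bulk RNA, fewer cells of a type and less RNA per cell cannot be told apart.

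Summed over the 56 genes, the water libraries stood at 1958, 1963, 1820.1 and 2110.4 CPM and the zinc libraries at 2000.2, 1881, 1888 and 2012 CPM. The groups overlapped, with both the lowest and the highest library among the water mice. As a share of raw counts the same sums were 0.149, 0.1996, 0.194 and 0.256% in water and 0.155, 0.188, 0.198 and 0.246% in zinc. The share was lowest in both libraries numbered 1, where Paneth markers took the most counts, and highest in both libraries numbered 4, where they took the fewest.

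**Figure D1:**
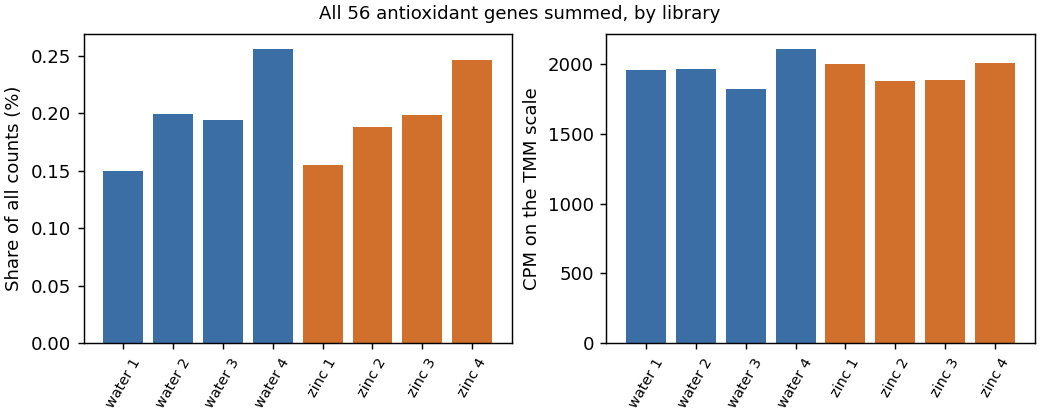
Bars give the summed level of all 56 antioxidant genes in each of the 8 libraries, water in blue and zinc in orange, on the left as a percent of all counts and on the right as CPM on the TMM scale. The share ran from 0.149 to 0.256% within the water group and from 0.155 to 0.246% within the zinc group, and the CPM of the 8 libraries lay between 1820.1 and 2110.4.

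NRF2 binds the antioxidant response element, searched here in its short form TGACNNNGC on both strands, from 250 bases before to 50 bases from the start of the canonical transcript (GRCm39). It was present in 8 of the 56 genes (14.3%), beside 12.5% of the promoters of all 21627 protein-coding genes, and all 8 were among the 44 tested (18.2%, beside 13.8% of tested protein-coding genes). The genes were Gclm, Gsta3, Gstm5, Prdx1, Prdx6, Sod1, Srxn1 and Txnrd1. The matches in 6 of them, all but Gsta3 and Prdx6, are shown with 10 bases on either side. Each is read 5′ to 3′ on the strand of its gene, with the element in capitals, which appears as GCNNNGTCA where it lies on the other strand.
Gclm (chr3:122039062-122039090, plus strand): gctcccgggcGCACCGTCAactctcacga
Srxn1 (chr2:151947462-151947490, plus strand): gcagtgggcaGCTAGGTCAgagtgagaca
Txnrd1 (chr10:82694938-82694966, plus strand): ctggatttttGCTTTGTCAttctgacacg
Prdx1 (chr4:116542653-116542681, plus strand): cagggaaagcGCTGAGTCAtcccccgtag
Sod1 (chr16:90017303-90017331, plus strand): ggcgcgctgtGCAAAGTCAgtgacaatcc
Gstm5 (chr3:107803118-107803146, plus strand): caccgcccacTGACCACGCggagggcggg
The metal response element, the site of the zinc sensor MTF-1, was searched as TGCACNC or TGCGCNC on both strands. It was found in 17 of the 56 promoters (30.4%), beside 27.4% of all protein-coding genes. Among tested genes it was the lower share, 11 of 44 (25%) beside 34.2% of the tested protein-coding genes. A match in either search is a string of letters and not a measured site, and such elements may also lie outside the window. In Gclm alone the 2 motifs overlapped.

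Nfe2l2 and Keap1, the sensor pair of the pathway, were both expressed, and neither passed the test. Nfe2l2 was at 58.4, 46.7, 59.7 and 54.3 CPM in water and 45.7, 46.1, 52.8 and 53.2 CPM in zinc (log2 fold change -0.15, SE 0.11, 95% interval -0.39 to 0.09, unadjusted p = 0.216). Keap1 was at 36.3, 33.2, 29.9 and 28.2 CPM and 30.9, 32.3, 34.1 and 37.5 CPM (log2 fold change 0.08, SE 0.12, 95% interval -0.17 to 0.33, unadjusted p = 0.506). For both genes the water and zinc values overlapped.

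Among the classical NRF2 targets, Nqo1, the quinone reductase, and Hmox1, the haem-degrading enzyme, were sparse in these cells. Nqo1 was at 1.69, 4.08, 3.09 and 3.48 CPM in the water libraries and 3.504, 2.37, 3.08 and 4.34 CPM in the zinc libraries (log2 fold change 0.10, SE 0.30, 95% interval -0.52 to 0.72, unadjusted p = 0.741). Hmox1 was at 1.13, 1.37, 2.24 and 2.06 CPM in water and 1.48, 1.45, 1.78 and 0.388 CPM in zinc (log2 fold change -0.43, SE 0.44, 95% interval -1.36 to 0.49, unadjusted p = 0.336). Its lowest value came from zinc library 4, and the other 3 zinc libraries lay within the water range. Srxn1, sulfiredoxin, which repairs overoxidised peroxiredoxins, was at 16.4, 18.7, 14.5 and 13.1 CPM and 18.2, 17.1, 16.5 and 17.6 CPM (log2 fold change 0.15, SE 0.14, 95% interval -0.14 to 0.44, unadjusted p = 0.299). The Gclm, Srxn1 and Txnrd1 promoters carry a match to the element, printed above, and the 3 genes had log2 fold changes of 0.12, 0.15 and -0.03.

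No gene of glutathione supply passed the test. Gclc and Gclm, the catalytic and modifier subunits of the ligase that commits glutamate and cysteine to glutathione, had intervals that spanned 0. Gclc was at 24.8, 28.0, 31.8 and 27.9 CPM in water and 30.8, 27.7, 28.1 and 28.2 CPM in zinc (log2 fold change 0.03, SE 0.12, 95% interval -0.21 to 0.27, unadjusted p = 0.809). Gclm was at 30.7, 27.5, 29.9 and 25.9 CPM and 36.5, 28.0, 27.4 and 32.2 CPM (log2 fold change 0.12, SE 0.12, 95% interval -0.14 to 0.38, unadjusted p = 0.336). Gss, glutathione synthetase, had a log2 fold change of -0.08 with an SE of 0.14. Gsr, which returns oxidised glutathione to its reduced form with NADPH, was at 42.2, 46.7, 46.9 and 54.3 CPM in water and 46.3, 55.3, 49.9 and 63.7 CPM in zinc (log2 fold change 0.18, SE 0.12, 95% interval -0.08 to 0.44, unadjusted p = 0.165). The highest Gsr value was in zinc library 4, and the groups overlapped.

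Slc7a11, the cystine importer, was the gene of this group with the widest error. It was at 1.25, 2.41, 2.88 and 10.5 CPM in water and 3.74, 6.52, 0.790 and 5.24 CPM in zinc (log2 fold change -0.09, SE 0.82, 95% interval -2.04 to 1.85, unadjusted p = 0.912). The values were scattered over 13.3-fold, with the lowest in zinc library 3 and the highest in water library 4, and the interval spanned both a fall and a rise of several fold.

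The glutathione S-transferases, which attach glutathione to electrophilic compounds, numbered 24, of which 18 were tested, 10 with a log2 fold change above 0 and 8 below (median 0.07). Per kilobase of canonical transcript, Gsto1, of the omega class, was the most abundant, at 87.8 ± 9.95 CPM per kb (mean ± SD, n = 8 libraries), followed by Gstm5, of the mu class, at 44.3 ± 8.29 CPM per kb. Their values did not overlap. Gsto1 was at 152, 139.8, 148 and 179.9 CPM in water and 193, 171, 169 and 186 CPM in zinc (log2 fold change 0.21, SE 0.11, 95% interval -0.03 to 0.45, unadjusted p = 0.0776). Water library 4 lay inside the zinc range and the other 3 water libraries lay below it. Gstm5 was at 54.8, 37.2, 33.5 and 38.0 CPM and 53.4, 41.0, 37.8 and 39.2 CPM (log2 fold change 0.07, SE 0.15, 95% interval -0.26 to 0.39, unadjusted p = 0.661), with both libraries numbered 1 the highest of their groups.

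Gstt1, of the theta class (ENSMUSG00000001663, chr10:75618994-75634445, minus strand), had the smallest p of the 44 genes. It was at 19.2, 14.6, 16.2 and 15.2 CPM in the water libraries and 15.3, 12.4, 11.2 and 9.97 CPM in the zinc libraries. Of the zinc libraries, 3 lay below every water library, and zinc library 1 lay within the water range. The log2 fold change was -0.42 with an SE of 0.16 and a 95% interval of -0.75 to -0.09 (unadjusted p = 0.0151, adjusted p = 0.998 in edgeR). Gstt2, its neighbour in class, was at 22.6, 18.0, 19.4 and 22.7 CPM and 20.3, 15.4, 16.7 and 19.0 CPM (log2 fold change -0.21, SE 0.14, 95% interval -0.50 to 0.08, unadjusted p = 0.142). Gstt3, the remaining theta gene with a test, had a log2 fold change of -0.05 with an SE of 0.15.

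Gstp1, the most abundant of the pi class, was at 29.4, 31.9, 22.6 and 34.8 CPM in water and 26.9, 24.3, 20.5 and 28.0 CPM in zinc (log2 fold change -0.25, SE 0.14, 95% interval -0.55 to 0.05, unadjusted p = 0.0996). Only 48.1% of the 75-base windows of its canonical transcript occur in no other gene, because Gstp2 (32.7%) is nearly identical, so the counts of the pair are uncertain. Gstp2 was at 2.32 to 3.99 CPM (log2 fold change -0.11, SE 0.26). Windows of Gstm2 (75.2%), Gstm3 (78.4%), Gstm1 (86.2%) and Gstt3 (75.2%) were also partly shared with other genes.

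The other tested transferases spanned a wide range of levels. Gstz1 ran from 23.9 to 31.5 CPM over the 8 libraries (log2 fold change -0.10, SE 0.12). Gstm1 ran from 18.5 to 25.5 CPM over the 8 libraries (log2 fold change 0.14, SE 0.14). Gstm2 ran from 15.8 to 21.7 CPM over the 8 libraries (log2 fold change 0.07, SE 0.13). These 3 were the most abundant of the remaining transferases by CPM. Lower levels were found for Gstm7 (4.39 to 10.3 CPM), Gstk1 (4.27 to 7.19 CPM), Gstm4 (4.15 to 6.32 CPM), Gstm3 (2.38 to 6.23 CPM) and Gstm6 (1.28 to 3.97 CPM), whose log2 fold changes ran from -0.44 to 0.19. None passed the test.

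The peroxidases reduce hydrogen peroxide and lipid peroxides, and 10 of 15 were tested, 5 above 0 and 5 below (median log2 fold change -0.0044). Gpx2, the glutathione peroxidase of the gut epithelium (ENSMUSG00000042808, chr12:76839107-76842326, minus strand), was at 178 ± 28.8 CPM per kb, second only to Txn1 among the 44 genes. Of its 75-base windows, 89.7% were unique, the rest being shared with the pseudogene Gpx2-ps1. Gpx2 was at 189, 238, 206 and 204 CPM in water and 148, 148, 201 and 177 CPM in zinc. Zinc libraries 1, 2 and 4 lay below every water library, while zinc library 3 lay above water library 1. The log2 fold change was -0.31 with an SE of 0.13 and a 95% interval of -0.58 to -0.05 (unadjusted p = 0.0242, adjusted p = 0.998 in edgeR). With counts scaled by library totals alone, the unadjusted p of Gstt1 and Gpx2 in edgeR was 0.0629 and 0.191. It was 0.0127 and 0.0145 in DESeq2, and 0.0116 and 0.0204 in limma-voom. With the replicate number as an added term in edgeR it was 0.00502 and 0.00443. Neither gene passed the adjusted threshold in any of these.

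**Figure D2:**
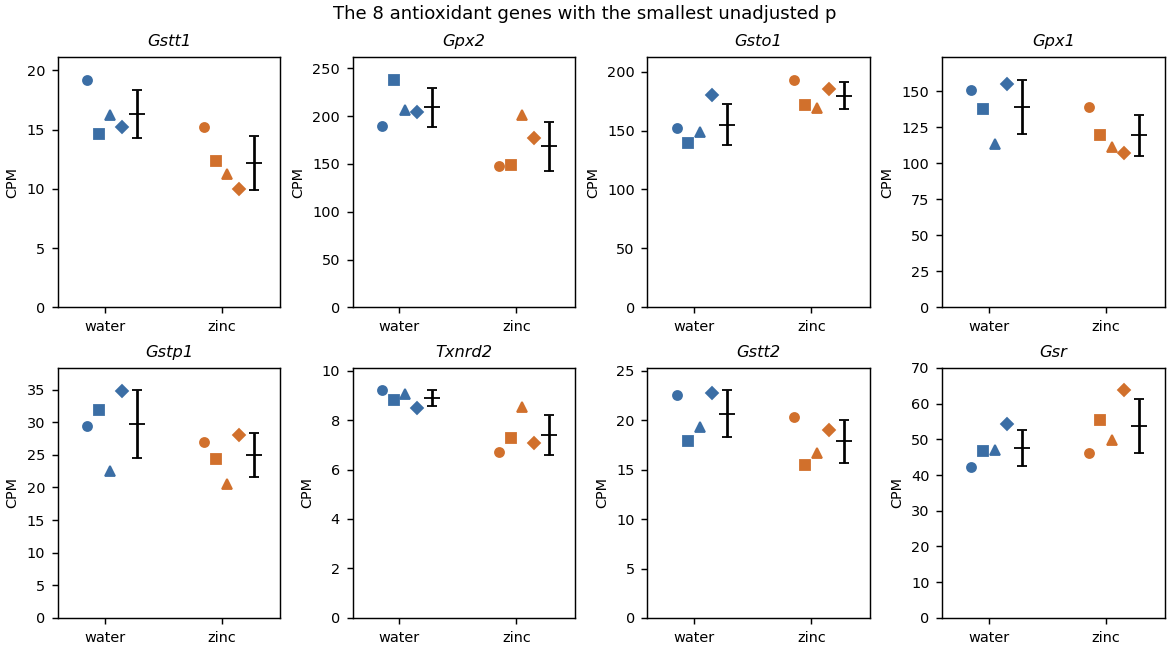
Each panel gives the CPM of 1 gene in the 4 water (blue) and 4 zinc (orange) libraries, for the 8 antioxidant genes with the smallest unadjusted p, from Gstt1 to Gsr. Circle, square, triangle and diamond are replicates 1, 2, 3 and 4, the black bar is the mean ± SD of the group, and each axis starts at 0. The groups overlap in every panel, by 1 zinc library for Gstt1 and for Gpx2.

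Gpx1, the cytosolic glutathione peroxidase, came next in level at 121 ± 17.4 CPM per kb. It was at 151, 137, 114 and 155 CPM in water and 139, 119.9, 112 and 107 CPM in zinc (log2 fold change -0.22, SE 0.12, 95% interval -0.48 to 0.04, unadjusted p = 0.0934). Gpx4, which clears lipid peroxides from membranes, ran from 8.85 to 13.5 CPM (log2 fold change -0.15, SE 0.16), but only 37.5% of its windows were unique, the rest being shared with Gpx4 pseudogenes. Gpx7 was at 0.726 to 2.09 CPM (log2 fold change 0.08, SE 0.42).

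The peroxiredoxins, thiol peroxidases that thioredoxin reduces, were tested for 5 genes, with log2 fold changes from -0.11 to 0.12. Prdx1, of the cytosol, was at 165, 168, 138 and 195 CPM in water and 181, 162, 165 and 204 CPM in zinc (log2 fold change 0.10, SE 0.12, 95% interval -0.17 to 0.36, unadjusted p = 0.457), and its level per length was 64.4 ± 7.70 CPM per kb. Of the windows of Prdx1, 92.3% were unique, and of those of Prdx2, 95.8%. Prdx2, also cytosolic, had a log2 fold change of 0.07 (SE 0.12), and mitochondrial Prdx3 of 0.12 (SE 0.10). For Prdx5 it was -0.11 (SE 0.13), and for Prdx6, which uses glutathione, -0.08 (SE 0.10). Catalase, Cat, the haem enzyme of peroxisomes, was at 48.6, 48.0, 61.9 and 54.1 CPM and 68.0, 64.9, 51.2 and 48.4 CPM (log2 fold change 0.13, SE 0.13, 95% interval -0.15 to 0.40, unadjusted p = 0.347).

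In the thioredoxin system all 6 genes were tested, 3 above 0 and 3 below. Txn1, cytosolic thioredoxin, had the highest level per length of the 44 genes, 253 ± 31.3 CPM per kb. It was at 205, 199.9, 157 and 235 CPM in water and 176, 197, 211 and 221 CPM in zinc (log2 fold change 0.02, SE 0.13, 95% interval -0.26 to 0.29, unadjusted p = 0.901), and the zinc values lay between the lowest and the highest water value. The 2 groups overlapped in the same way for the mitochondrial form. Txn2 was at 84.8, 81.9, 70.7 and 89.5 CPM and 87.7, 75.1, 76.9 and 80.3 CPM (log2 fold change -0.03, SE 0.11, 95% interval -0.26 to 0.20, unadjusted p = 0.781). The reductase Txnrd1, a selenoprotein that returns Txn1 to its reduced form, was at 85.9, 100.1, 91.2 and 88.9 CPM in water and 85.0, 88.7, 93.3 and 90.7 CPM in zinc (log2 fold change -0.03, SE 0.10, 95% interval -0.25 to 0.18, unadjusted p = 0.745). It was the steadiest of the 44 genes, with a coefficient of variation of 5.24% over the 8 libraries. Txnrd2, its mitochondrial counterpart, was at 9.19, 8.81, 9.05 and 8.48 CPM and 6.71, 7.29, 8.53 and 7.06 CPM (log2 fold change -0.26, SE 0.16, 95% interval -0.60 to 0.08, unadjusted p = 0.121). Zinc library 3 lay inside the water range of Txnrd2 and the other 3 zinc libraries below it. Txnrd3 was at 5.25 to 9.24 CPM (log2 fold change 0.16, SE 0.19).

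Sod1, the copper and zinc superoxide dismutase of the cytosol, was at 97.5, 95.9, 95.1 and 109.6 CPM in water and 112, 101, 99.2 and 108 CPM in zinc (log2 fold change 0.08, SE 0.10, 95% interval -0.14 to 0.30, unadjusted p = 0.469). Zinc is a structural cofactor of the enzyme, and the transcript differed by less than the spread between mice. Water library 4 lay apart from the other 3 water libraries and within the zinc range. The exons of Sod1 overlap those of Scaf4 on the other strand over 48.8% of their length. The strand setting of the counting is not stated, so reads from the pair may not have been told apart. The same holds for Gpx3 (85.0% of its exons), Gss (32.7%), Prdx5 (29.2%), Gstz1 (27.7%), Prdx2 (20.6%) and Gstm5 (14.6%). Sod3, the secreted form, had 0 to 4 counts per library and was not tested.

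Across the 44 genes, the 5 highest levels per length were those of Txn1, Gpx2, Gpx1, Gsto1 and Prdx1 (64.4 CPM per kb). The 8-library ranges of each neighbouring pair overlapped, but within each of the 8 libraries the 5 genes stood in this order. Txn1 ran from 198 to 297 CPM per kb, Gpx2 from 139 to 224, Gpx1 from 100.001 to 145, Gsto1 from 73.4 to 101 and Prdx1 from 51.7 to 76.2. Per kilobase of merged exons the same 5 genes came first, with Gpx1 ahead of Gpx2. The lowest levels among the tested genes were those of Slc7a11 (0.452 CPM per kb), Gstm6 (0.795) and Hmox1 (0.944).

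**Figure D3:**
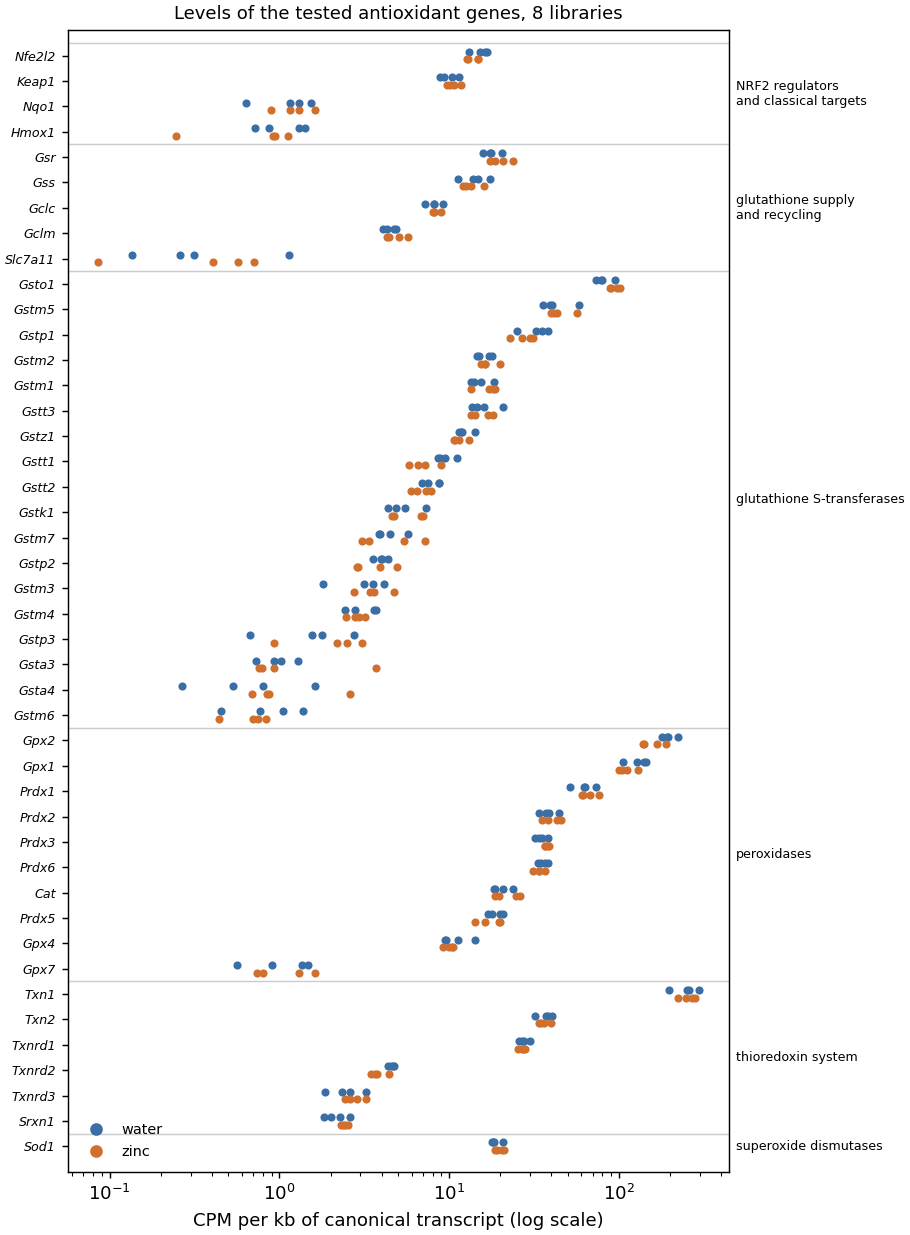
Each row is 1 of the 44 tested antioxidant genes, grouped by role, and its 8 points are the water (blue) and zinc (orange) libraries on a log axis of CPM per kb of canonical transcript. Txn1, Gpx2, Gpx1, Gsto1 and Prdx1 lie farthest to the right, and blue and orange points overlap in every row.

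The precision of the comparison differed between genes. The SE of the log2 fold change ran from 0.10 to 0.82 with a median of 0.14. For Txnrd1 the interval allowed a fold of 0.841 to 1.13, for Nfe2l2 of 0.765 to 1.07, and for Gclc of 0.862 to 1.21. The sparse genes were bounded far less. The fold of Nqo1 could lie between 0.695 and 1.65, that of Hmox1 between 0.390 and 1.40, and that of Slc7a11 between 0.243 and 3.61. A p above the threshold does not show that the groups are alike.

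**Figure D4:**
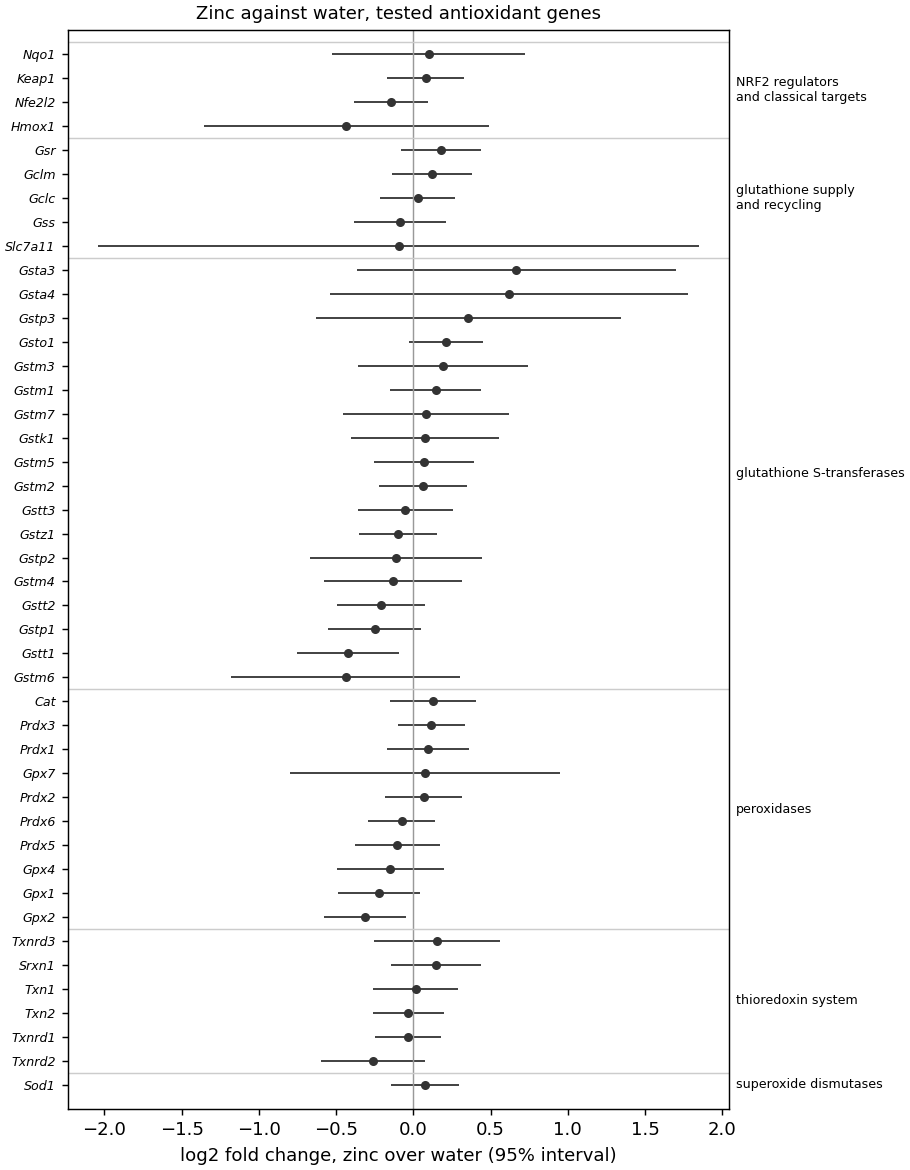
Each row is 1 of the 44 tested antioxidant genes, grouped by role, with its log2 fold change (zinc over water, dot) and 95% interval (line). The intervals of Gstt1 and Gpx2 lie below 0 and those of the other 42 genes span it, with Slc7a11 the widest.

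The largest spread between mice was found in sparse genes, singled out here after their values were seen. Gsta3, an alpha-class transferase, had a coefficient of variation of 78.9% over the 8 libraries. It was at 1.88, 1.504, 1.35 and 1.07 CPM in water and 1.37, 1.16, 1.11 and 5.43 CPM in zinc, and zinc library 4 alone was high. Gsta4, which conjugates lipid aldehydes, varied by 72.5% and was at 0.563, 1.12, 1.69 and 3.44 CPM in water and 1.84, 1.79, 1.46 and 5.51 CPM in zinc. It was highest in both libraries numbered 4 (log2 fold change 0.62, SE 0.54). Zinc library 4 also had the highest goblet marker sum, 5867 CPM, and water library 4 the next, 4152 CPM. Water library 1 came close behind in that sum, yet Gsta4 was lowest there. The goblet markers did not move together. Clca1, Fcgbp and Zg16 were highest in both libraries numbered 4. Muc2 was at its lowest of the 8 libraries in water library 4, and Tff3 was highest in water library 1. The part of goblet cells in the 2 genes was not tested. Gstp3 was at 0.458 to 2.09 CPM, a coefficient of variation of 44.3%. At the other end stood Txnrd1, Prdx6 (6.40%), Sod1 (6.41%) and Prdx3 (6.66%).

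**Figure D5:**
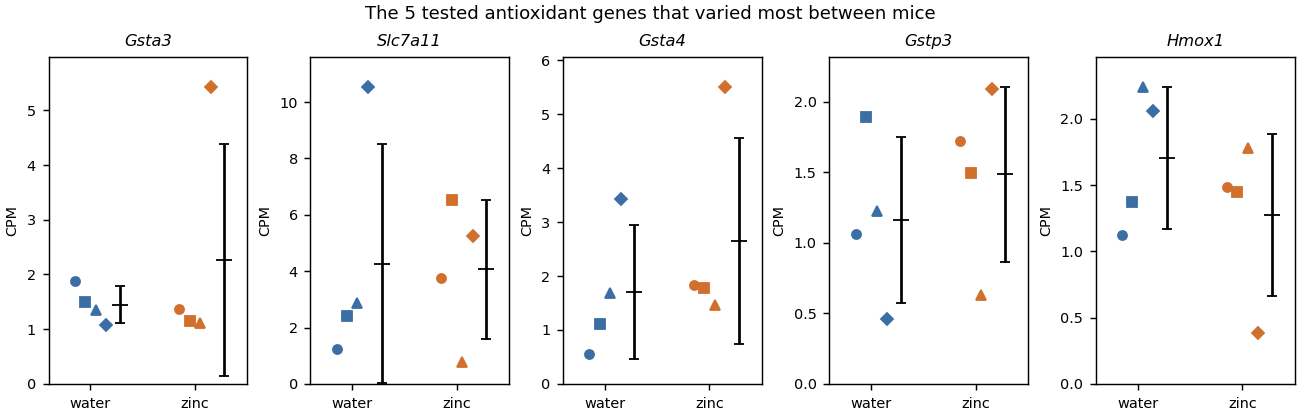
Each panel gives the CPM of 1 gene in the 4 water (blue) and 4 zinc (orange) libraries, for the 5 tested genes with the highest coefficient of variation, Gsta3, Slc7a11, Gsta4, Gstp3 and Hmox1. Circle, square, triangle and diamond are replicates 1, 2, 3 and 4, and the black bar is the mean ± SD of the group. Single mice, such as zinc 4 for Gsta3 (5.43 CPM) and water 4 for Slc7a11 (10.5 CPM), stand far from the rest.

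The remaining 12 genes had too few counts to be tested. Gsta5, Gstt4 and Gpx6 were at 0 in all 8 libraries. Gsta1, Gsta13, Gpx8 and Prdx6b had at most 3, 3, 3 and 1 counts in any library, Gsta2 and Gpx5 at most 1, Sod3 at most 4, Gpx3 at most 6 and Gsto2 at most 9. Gsta1 and Gsta2 are abundant transferases of absorptive enterocytes and liver, and the enterocyte markers Alpi, Lct and Fabp1 were also near 0. Only 14.8% of the windows of Gsta1 and 11.1% of those of Gsta13 were unique, so reads of this cluster that were not counted would be missed. No group comparison was made for these genes.

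A wider list of 64 genes around the same pathway, chosen by function, gave 60 tested genes, of which 0 passed the adjusted threshold in edgeR, 27 were above 0 and 33 below. Pstk, a kinase that prepares the selenocysteine tRNA used by the Gpx and Txnrd selenoproteins, was the only gene of the 60 with an unadjusted p under 0.05, beside 4.65% of all genes tested. It was at 5.57, 3.52, 6.01 and 5.69 CPM in water and 7.30, 6.66, 6.99 and 8.69 CPM in zinc, higher in each zinc library than in any water library (log2 fold change 0.51, SE 0.20, unadjusted p = 0.022, adjusted p = 0.998 in edgeR). Cbr1, a carbonyl reductase, was the other gene of the 60 whose groups did not overlap, also higher after zinc. Groups that did not overlap made up 2.84% of all genes tested, or 1.24% when only higher values are counted. Prdx4, the peroxiredoxin of the endoplasmic reticulum, had a log2 fold change of -0.26 (SE 0.13, unadjusted p = 0.0631). For Msrb2, a mitochondrial methionine sulfoxide reductase, it was 0.94 (SE 0.50, unadjusted p = 0.0784). Of the 8 partners and turnover factors of NRF2, 7 were below 0 (median log2 fold change -0.10), beside 5761 of all 11988 genes tested. None passed the test, and their smallest unadjusted p was 0.223 in edgeR.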

How the data were processed

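Per the labels, total RNA of FACS-sorted Paneth cells was made into libraries with the TruSeq stranded mRNA kit. The deposited table gives raw counts of reads for each Ensembl gene, not normalized by the authors, with 1 column for each of the 8 libraries and 0 columns of other samples. The submitters' processing notes name FastQC 0.12.0, STAR 2.7.0a, DESeq2 and build mm39. The counting program, its strand setting and the treatment of reads that fit several genes are not stated in the sources used here. Such reads may be lost or split, which lowers or blurs near-identical genes, and so may reads of overlapping genes.

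Symbols, coordinates and promoters were taken from GENCODE M39 on GRCm39 by gene ID (54749 of 55414 IDs matched). Genes passing filterByExpr (minimum count 10) were scaled by TMM and tested with edgeR 4.0.16 (robust quasi-likelihood, treatment as the only term, all 8 libraries, R 4.3.3). P-values were adjusted by Benjamini-Hochberg over all 11988 genes, with a threshold of 0.05. The SE is the log2 fold change divided by the root of the F statistic, and its 95% interval uses the t quantile. These intervals, and the limit of 3 counts behind a 0, cover no error from read assignment. Levels between genes were compared per kilobase of the Ensembl canonical transcript, a choice made after seeing the data because retained introns lengthen merged exons.

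The genes described in full were the 8 with the smallest p, the top 2 of each role by CPM per kb of merged exons, and Nfe2l2, Keap1, Nqo1, Hmox1, Gclc, Gclm, Slc7a11, Srxn1 and Txnrd1. Prdx1, Cat, Gsta3 and Gsta4 fall outside this rule and were chosen after their values were seen. Of the wider list, the genes described were the 3 with the smallest p. The genes and lists were chosen with earlier results of these data known. Alternatives were RLE size factors, library totals, DESeq2 1.42.0, limma-voom (limma 3.58.1), every gene with a count, genes with a mean count of 50 or more, Defa genes left out, a replicate block and each library left out. The code was tested on simulated data. Protein sequences were not used here.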

Additional observations from a re-analysis of the deposited data

Results flagged for a closer look

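In 4 of the 64 groups of 4 values examined, 1 library lay far from the other 3 (Dixon's test at 95%). Chance alone flags about 1 in 20 separate groups. These 4 are not separate findings, so their count cannot be set against that rate. Gclc was at 30.8 CPM in zinc library 1, with the other zinc libraries at 27.7 to 28.2 CPM. Sod1 was at 109.6 CPM in water library 4, with the other water libraries at 95.1 to 97.5 CPM. The sum of both superoxide dismutases there was also 109.6 CPM, beside 95.2 to 97.5 CPM. That flag repeats the one of Sod1, as Sod3 had 0 counts in water library 4. Sod3 was at 0.0423 CPM in water library 3, which is a single count, and at 0 in the other water libraries. A lone count beside values of 0 is always flagged by this test.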

How the results depend on the processing

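The count of antioxidant genes past the adjusted threshold was 0 under every alternative run, and so was that of the wider pathway list. The smallest adjusted p of the antioxidant genes over the alternatives was 0.363, for Gpx2 with a replicate block. The median log2 fold change of the tested antioxidant genes stayed between -0.04 and 0.07. The count of all genes past the threshold was 10, and became 34 with DESeq2, 66 without the count filter and 32 with the replicate block. It ran from 1 to 15 when single libraries were left out, with 1 without water library 2, 3 without zinc library 2 and 4 without water library 3. The same-numbered libraries deviated together with correlations of 0.233, 0.000055, 0.127 and 0.263. The highest correlation between libraries of different number was 0.0397. Libraries 1, 3 and 4 correlated best with their own number, and library 2 did not. The main fit did not take the numbers as pairs, and the replicate block is the alternative that does. The TMM factors of libraries 1 to 4 were also alike by number, at 0.764, 1.02, 1.07 and 1.21 in water and 0.775, 0.998, 1.05 and 1.23 in zinc. Whether the numbers pair the mice was not settled. Under the replicate block 5 of 44 antioxidant genes had an unadjusted p under 0.05, beside 937 of all 11988 genes, and under library totals 0 of 44, beside 226 of 11988. Leaving out single libraries gave 1 to 4 of 44, beside 391 to 796 of all genes.

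Of the 24 named genes, 7 changed direction under at least 1 alternative, with 14 such values of 382. Slc7a11 turned to a log2 fold change of 0.018 with the replicate block. When single libraries were left out, it ran from -0.41 to 0.87 for Slc7a11, from -0.094 to 0.25 for Nqo1, from -0.027 to 0.086 for Gclc, from -0.055 to 0.24 for Gstm5, from -0.088 to 0.10 for Txn1, from -0.10 to 0.012 for Txn2 and from -0.065 to 0.0046 for Txnrd1. The cause was not tested. The 12 untested genes had at most 9 counts in any library, and whether depth, read assignment or a lack of expression lay behind this was not tested. Slc7a11 had 20 to 276 counts per library. Both groups rest on 4 mice.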
